A study of Chlamydomonas reinhardtii with 6 samples.

Results

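The 4 alpha and beta tubulin genes of the green alga Chlamydomonas reinhardtii were followed by RNA sequencing in the wild type (WT) and in a CMD1 knockout (cmd1 KO). They were selected by gene identifier from the 17736 gene models of the deposited table, as TUA1 and TUA2 for alpha tubulin and TUB1 and TUB2 for beta tubulin. The names came with the identifiers of the selection. Neither the table nor the RefSeq gene table pairs an identifier with a gene symbol, so the names, and the level of CMD1 itself, could not be checked from the data. Both genotypes were of strain CC125, and CMD1 is related to the TET dioxygenases that oxidise 5-methylcytosine in animal DNA. Cultures of both were kept at 25 °C in an acetate medium under 20 µmol photons per m2 per s, and high light of 300 µE followed in Sueoka's high salt medium, so that all libraries are from high light. Each genotype had 3 libraries that the labels call biological replicates, numbered 1 to 3. The labels do not say how the knockout was made or how many clones it was drawn from.

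Alpha and beta tubulin form the dimer from which microtubules are built. In Chlamydomonas microtubules make up the axonemes of both flagella, the rootlets under the cell membrane and the mitotic spindle. The alpha genes encode near-identical proteins and the beta genes encode the same protein. In this alga tubulin transcripts are known to rise together when flagella regrow after their loss and again around cell division.

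TUA1 (Cre03.g190950.v5.5) lies on chromosome 3 from 6017519 to 6019856 in assembly v5.5. TUA2 (Cre04.g216850.v5.5) lies on chromosome 4 from 144030 to 147635. The beta genes share chromosome 12, TUB2 (Cre12.g549550.v5.5) from 8332995 to 8335438 and TUB1 (Cre12.g542250.v5.5) from 9167628 to 9170277, with starts 834633 bases apart. No other annotated gene span overlapped any of the 4. The length that the deposited FPKM values divide by was 1898 bases for TUA1, 2680 for TUA2, 2026 for TUB1 and 1896 for TUB2. FPKM is the read count divided by the length of the gene model in kilobases and by the library total, and was used for comparing levels between genes.

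The gene counts of a library summed to between 38875025 and 47869886. Both libraries of replicate 3 stand apart from replicates 1 and 2 of their own genotype. A chi-square distance per gene between counts scaled to library totals was 23.1 between WT replicates 1 and 2 and 10.2 between those of cmd1 KO. From these, replicate 3 stood at 418 and 431 in WT and at 842 and 757 in cmd1 KO. The libraries of replicate 3 stood at 106 from each other. Over tested genes their deviations from the group means correlated at 0.547 with each other. With those of the other genotype's replicates 1 and 2 they correlated at -0.485 to -0.547. Deviations cancel out within a group, so these negative values largely follow from the positive one. The scaling factors of the trimmed mean of M-values method (TMM, which sets libraries level on the bulk of genes) were 0.515 and 0.489 in cmd1 KO replicates 1 and 2, against 1.29 to 1.70 in WT and 1.38 in cmd1 KO replicate 3. Genotype differences are therefore given on both scales. A log2 ratio of cmd1 KO to WT on library sizes alone had a median over the 10878 tested genes of -1.40, -1.49 and -0.32 in the pairs of replicates 1, 2 and 3, and with TMM of -0.06, -0.09 and -0.01. In bulk RNA a change in the share of cells that express a gene and a change per cell cannot be told apart.

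All 4 tubulin genes were expressed strongly in every library, and their FPKM separated replicate 3 from replicates 1 and 2 more than it separated the genotypes. With TMM this was less clear for TUB2. Its cmd1 KO replicate 3 was 1.81-fold the mean of cmd1 KO replicates 1 and 2. Its cmd1 KO level was 190%, 153% and 51.4% of WT in the pairs of replicates 1, 2 and 3. The 24 values were between 23.6 and 847 FPKM, from raw counts of 2516 to 62717, so the counting error was 0.399% to 1.99% of a value. Ranked by FPKM among all 17736 genes, the tubulin genes held places 309 to 988 in replicates 1 and 2 and places 131 to 288 in replicate 3. All 4 passed the filter on low values, which kept genes whose FPKM averaged 1 or more.

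TUA1, an alpha tubulin gene, stood at 138, 162 and 780 FPKM in WT replicates 1, 2 and 3, and at 45.7, 45.4 and 449 FPKM in the cmd1 KO replicates of the same numbers. Both replicate 3 libraries were far above the other 4, and the cmd1 KO library lay below the WT library of its number in each case. The group means were 360 ± 364 FPKM (SD, n = 3) in WT and 180 ± 233 in cmd1 KO, and the genotypes overlapped.

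TUA2, the other alpha tubulin gene, followed TUA1 at nearly the same proportion throughout. Its values were 74.9, 95.0 and 412 FPKM in WT and 26.5, 23.6 and 247 FPKM in cmd1 KO replicates 1, 2 and 3. Again replicate 3 was highest in each genotype, and the genotypes overlapped, at 194 ± 189 FPKM (SD, n = 3) in WT and 99.1 ± 128 in cmd1 KO.

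TUB1, a beta tubulin gene, was at 76.6, 93.1 and 405 FPKM in WT and at 37.8, 34.1 and 250 FPKM in cmd1 KO. In all 3 WT libraries and in cmd1 KO replicate 3 it was almost level with TUA2, the ratio of TUB1 to TUA2 being 0.980 to 1.02, whereas in cmd1 KO replicates 1 and 2 it was 1.43 and 1.45. The group means of TUB1 were 192 ± 185 FPKM (SD, n = 3) in WT and 107 ± 124 in cmd1 KO, with overlap.

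TUB2, the other beta tubulin gene, was at 96.7, 120 and 847 FPKM in WT and at 72.5, 69.3 and 352 FPKM in cmd1 KO. It had the widest range in WT and the smallest genotype difference in replicates 1 and 2 of the 4 genes on this scale. Its group means were 354 ± 426 FPKM (SD, n = 3) in WT and 165 ± 163 in cmd1 KO, with overlap.

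**Figure D1:**
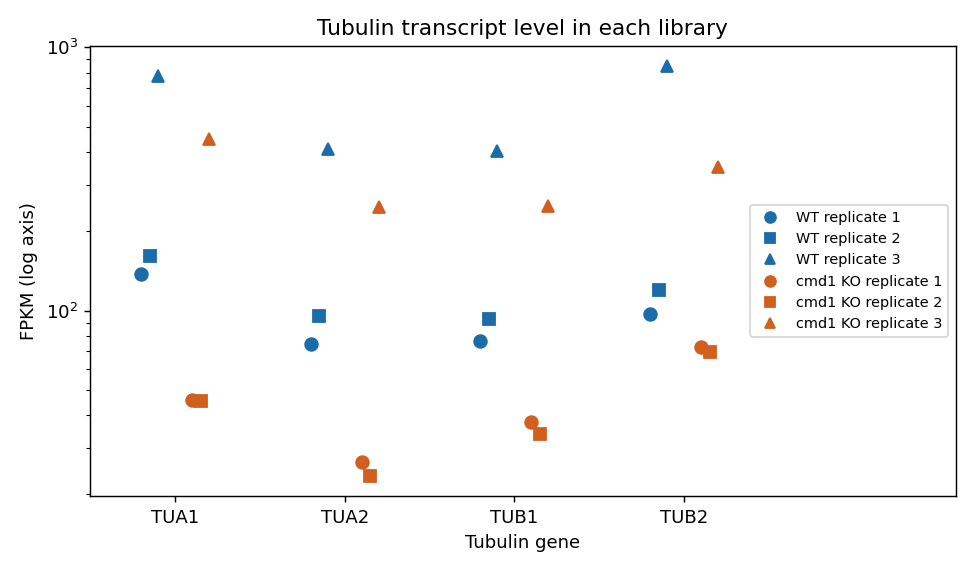
FPKM (log axis) of the 4 tubulin genes, with 1 point per library, WT in blue and cmd1 KO in orange, and the replicate number as the symbol. In each genotype the triangle of replicate 3 (247 to 847 FPKM) sits above the points of replicates 1 and 2 (23.6 to 162 FPKM).

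The order of the genes changed between sets of libraries. In WT replicates 1 and 2 and in cmd1 KO replicate 3 TUA1 was highest and TUB2 next, the ratio of TUB2 to TUA1 being 0.700, 0.743 and 0.786. In WT replicate 3 and in cmd1 KO replicates 1 and 2 TUB2 was highest, with ratios of 1.09, 1.59 and 1.53. TUA2 and TUB1 held the lower places in every library. Their order was not stable across the WT libraries, where the ratio fell on both sides of 1.

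In replicate 3 the tubulin transcripts were several-fold above replicates 1 and 2 in both genotypes. On library sizes alone the WT value of replicate 3 was 5.21-fold the mean of WT replicates 1 and 2 for TUA1, 4.86-fold for TUA2, 4.78-fold for TUB1 and 7.81-fold for TUB2. The median over tested genes was 1.29-fold, and from 2.57% to 5.84% of tested genes had a fold at least as large as a tubulin gene's. In cmd1 KO the folds were 9.85 for TUA1, 9.87 for TUA2, 6.96 for TUB1 and 4.97 for TUB2, beside a median of 2.999 over tested genes. There from 13.5% to 32.2% of tested genes had as large a fold, so in cmd1 KO the tubulin genes stood less far out among all genes.

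All 4 genes were at least 4-fold higher in replicate 3 in both genotypes on library sizes alone, as were 6.72% of tested genes. With TMM 0 of the 4 reached 4-fold in both genotypes, against 2.99% of tested genes. The TMM folds were 3.98 for TUA1, 3.71 for TUA2, 3.65 for TUB1 and 5.97 for TUB2 in WT, and 3.58, 3.60, 2.53 and 1.81 in cmd1 KO in that order of genes. Replicate 3 had 1 library per genotype, so these folds are descriptions without a test.

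The summed level of the 4 genes gives the size of the tubulin transcript pool. It was 386, 470 and 2444 FPKM in WT replicates 1, 2 and 3, and 183, 172 and 1298 FPKM in cmd1 KO. Every cmd1 KO library lay below the WT library of its number, by 1.08, 1.45 and 0.91 on the log2 scale, yet cmd1 KO replicate 3 lay above WT replicates 1 and 2. The mean log2 difference was -1.15, with an SD of 0.27 between pairs (exact permutation test of unpaired libraries, two-sided, p = 0.5, and 0.667 after Benjamini-Hochberg adjustment over 4 measures). With the libraries paired by number the exact permutation p was 0.25, the smallest that 3 pairs allow. On summed CPM with TMM the mean log2 difference was -0.15 (exact permutation test, two-sided, p = 0.8), so the size of the difference rested on the scaling. After TMM scaling the pool was 295, 363 and 1436 FPKM in WT and 355, 352 and 942 FPKM in cmd1 KO, so that in replicate 1 the order of the genotypes turned.

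Across all 6 libraries no tubulin gene passed the test for a genotype difference, in edgeR, DESeq2 or limma. edgeR's quasi-likelihood test with TMM called 0 of the 4 genes and 0% of the 10878 tested genes at a threshold of 0.05 after Benjamini-Hochberg adjustment, with 1952 genes at an unadjusted p under 0.05. DESeq2 called 0 of the 4 genes and 6.32% of tested genes. The log2 difference of cmd1 KO from WT was -0.44 for TUA1 (SE 0.78, edgeR adjusted p = 0.782) and -0.42 for TUA2 (SE 0.76, adjusted p = 0.791). For TUB1 it was -0.18 (SE 0.67, adjusted p = 0.907) and for TUB2 -0.30 (SE 0.78, adjusted p = 0.858). On library sizes alone the differences were -1.001, -0.97, -0.84 and -1.11 in the order TUA1, TUA2, TUB1 and TUB2 (SE 1.03 to 1.14, edgeR adjusted p from 0.576 to 0.652). On log2(FPKM + 1), which is scaled by library size too, limma gave -1.39, -1.39, -1.04 and -0.82 (adjusted p from 0.378 to 0.566). These errors hold the whole shift between replicate 3 and the other libraries, and without WT replicate 3 all 4 differences with TMM were above 0, at 0.55, 0.51, 0.73 and 1.11 in the same order. Blocked by replicate number the differences were -0.39, -0.40, -0.04 and 0.21, again with no call for any of the 4 in edgeR. The blocked fit, the fit on library sizes alone and limma each called 0% of the 10878 tested genes too.

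By pair and on library sizes alone, all 4 genes were lower in cmd1 KO in all 3 pairs, a pattern shared by 67.2% of tested genes. TUA1 was at 33.1%, 28.1% and 57.5% of its WT level in pairs 1, 2 and 3, and TUA2 at 35.4%, 24.8% and 59.95%. TUB1 was at 49.3%, 36.6% and 61.7%, and TUB2 at 74.99%, 57.7% and 41.6%. Among all tested genes, 44.5%, 41.2% and 16.8% had a lower ratio than TUA1 in pairs 1, 2 and 3, and 47.3%, 36.6% and 19.7% a lower one than TUA2. For TUB1 these shares were 62.3%, 51.0% and 21.7%, and for TUB2 they were 80.5%, 68.4% and 5.57%. In pair 3 all 4 genes were thus below the median, TUB2 the farthest.

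With TMM, 2 of the 4 genes, TUA1 and TUA2, were lower in cmd1 KO in all 3 pairs, as were 28.6% of tested genes. The log2 ratios of TUA1 were -0.25, -0.43 and -0.49 in pairs 1, 2 and 3, and those of TUA2 were -0.15, -0.61 and -0.43. TUB1 lay at 0.33, -0.05 and -0.39. TUB2 lay at 0.93, 0.61 and -0.96, on opposite sides of 0 in pairs 1 and 2 and in pair 3, which was so for 35.7% of tested genes. The shares of tested genes with a lower ratio are the same on both scales.

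**Figure D2:**
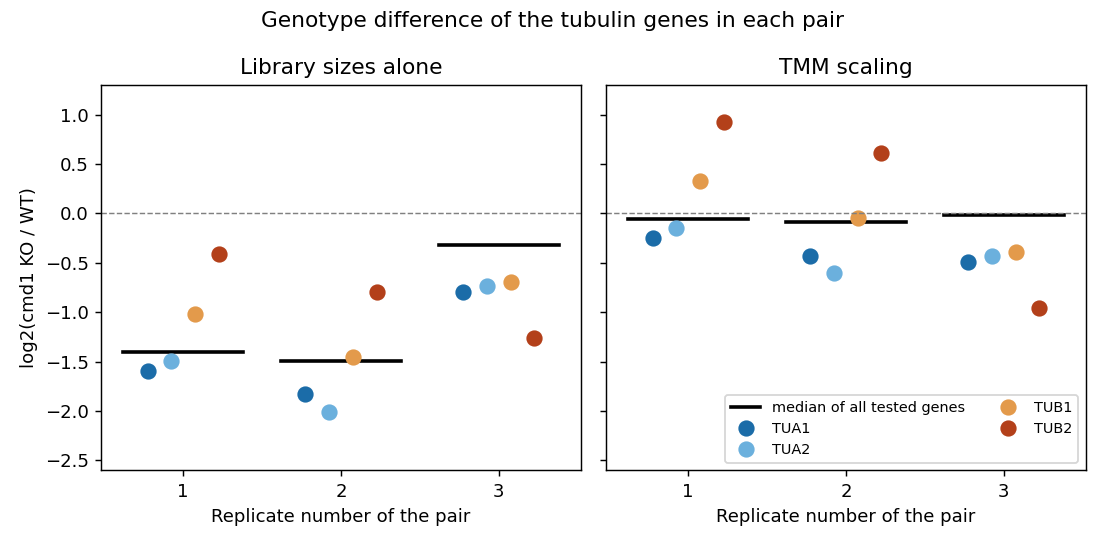
Log2 ratio of cmd1 KO to WT for each tubulin gene in the pairs of replicates 1, 2 and 3, on library sizes alone (left) and with TMM scaling (right), with a black bar at the median of all tested genes. TUB2 is the highest of the 4 genes in pairs 1 and 2 and the lowest in pair 3 on both scales.

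The tubulin genes were also set beside genes of like length, in 5 equal classes of the tested genes. In the class of 1536 to 2043 bases, which holds TUA1, TUB1 and TUB2, the median TMM log2 ratio was 0.39, 0.49 and 0.03 in pairs 1, 2 and 3. In the class of 2043 to 2692 bases, which holds TUA2, it was -0.04, -0.07 and -0.05. TUA1 and TUA2 lay below the median of their class in all 3 pairs and TUB2 above it in pairs 1 and 2. TUB1, at 0.33 in pair 1 and -0.05 in pair 2, was below it in each. The part of length in these ratios was not tested.

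Within replicates 1 and 2 alone, with TMM, both alpha genes were called lower in cmd1 KO and the beta gene TUB2 was called higher. edgeR called TUB2 higher in cmd1 KO by 0.76 on the log2 scale with TMM (SE 0.14, adjusted p = 2.18e-05), where 34.3% of tested genes were called higher. TUA1 fell by 0.35 (SE 0.14, adjusted p = 0.0279) and TUA2 fell by 0.40 (SE 0.15, adjusted p = 0.0174), where 37.8% were called lower. TUB1, at 0.13, was not called (SE 0.15, adjusted p = 0.437 in edgeR). In all 72.2% of genes were called, so 3 called genes of 4 is near the background.

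The direction of the beta genes in replicates 1 and 2 depended on the scaling. With library sizes alone edgeR called all 4 genes lower, as it did 78.8% of tested genes, with log2 differences of -1.72 for TUA1, -1.76 for TUA2, -1.24 for TUB1 and -0.61 for TUB2 (SE 0.14 to 0.15, edgeR adjusted p of 0.000614 for TUB2 and less for the others). DESeq2, which called 67.1% of tested genes, called TUB2 higher, at 0.83 (adjusted p = 1.42e-07), and called neither TUA1 (adjusted p = 0.0817) nor TUA2 (0.0594). Blocked by replicate number TUA1 had an edgeR adjusted p of 0.0502 and was no longer called, whereas TUA2 (0.0321) and TUB2 (2e-05) were. Leaving out WT replicate 2, cmd1 KO replicate 1 or cmd1 KO replicate 2 also ended the calls of TUA1 and TUA2, with edgeR adjusted p from 0.0583 to 0.230. Such a fit has 1 library in a genotype, assumed to vary like the other genotype's 2. The log2 differences of TUA1 and TUA2 were then -0.22 and -0.20 without WT replicate 2, -0.31 and -0.44 without cmd1 KO replicate 1, and -0.38 and -0.34 without cmd1 KO replicate 2. So did DESeq2's size factors in edgeR (adjusted p = 0.101 for TUA1 and 0.0628 for TUA2) and the lack of a filter on low values (edgeR adjusted p = 0.226 and 0.159).

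Measured against the spread within replicates 1 and 2, the genotype effect of TUB2 differed in replicate 3. The edgeR interaction term was -1.72 for TUB2 (SE 0.25, adjusted p = 3.81e-06), where 50.7% of tested genes were called in either direction and 23.4% in the negative one. It was -0.65 (adjusted p = 0.0225 in edgeR) on library sizes alone, so TUB2 kept its sign on both scales. On that scale the median term was 1.11, and of 10878 tested genes 636 were called in the negative direction and 6386 in the positive one. With TMM, TUA1, at -0.15, and TUA2, at -0.04, were not called (edgeR adjusted p = 0.623 and 0.898), and TUB1, at -0.53, was not either (0.0822). On library sizes alone the terms of TUA1 and TUA2 were 0.92 and 1.02 and were called (edgeR adjusted p = 0.00185 and 0.00174), as were 64.6% of tested genes in either direction. This test takes its spread from replicates 1 and 2, since replicate 3 has 1 library per genotype. The common biological coefficient of variation was 0.130 among those 4 libraries and 0.558 over all 6, so the spread between cultures such as replicate 3 is not in these errors.

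Ratios between tubulin genes within a library do not depend on how libraries are scaled to each other, and they separated the alpha pair from the beta pair. The ratio of TUA2 to TUA1 was 0.542, 0.588 and 0.528 in WT and 0.580, 0.519 and 0.551 in cmd1 KO. These 6 values covered a narrow range although the highest level was 17.2-fold the lowest for TUA1 and 17.5-fold for TUA2. How reads shared by near-identical tubulin genes were counted is not stated, and their part in this ratio was not tested. The genotypes overlapped, with a mean log2 difference of -0.01 between SDs of 0.08 in each genotype (exact permutation test, two-sided, n = 3 per genotype, p = 0.9).

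The ratio of TUB2 to TUB1 was 1.26, 1.29 and 2.09 in WT and 1.92, 2.03 and 1.41 in cmd1 KO. It was low in WT replicates 1 and 2 and in cmd1 KO replicate 3, and high in the other 3 libraries. On the log2 scale cmd1 KO exceeded WT by 0.60 and 0.66 in pairs 1 and 2 and was below it by a log2 difference of -0.57 in pair 3. In replicates 1 and 2 libraries of the same genotype differed far less than the genotypes did, but 2 against 2 libraries cannot give a small exact p. Over all 6 libraries the mean log2 difference was 0.23 (exact permutation test, two-sided, n = 3 per genotype, p = 0.4).

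Summed alpha over summed beta FPKM was 1.23, 1.20 and 0.953 in WT and 0.655, 0.667 and 1.15 in cmd1 KO. In cmd1 KO replicates 1 and 2, and slightly in WT replicate 3, the beta genes thus exceeded the alpha genes. In WT replicates 1 and 2 and in cmd1 KO replicate 3 the alpha genes exceeded the beta genes. The log2 differences between genotypes were -0.91, -0.85 and 0.28 in pairs 1, 2 and 3, with a mean of -0.49 (exact permutation test, two-sided, n = 3 per genotype, p = 0.2, adjusted over 4 measures 0.667). With 3 libraries against 3 no such test can go below 0.1.

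**Figure D3:**
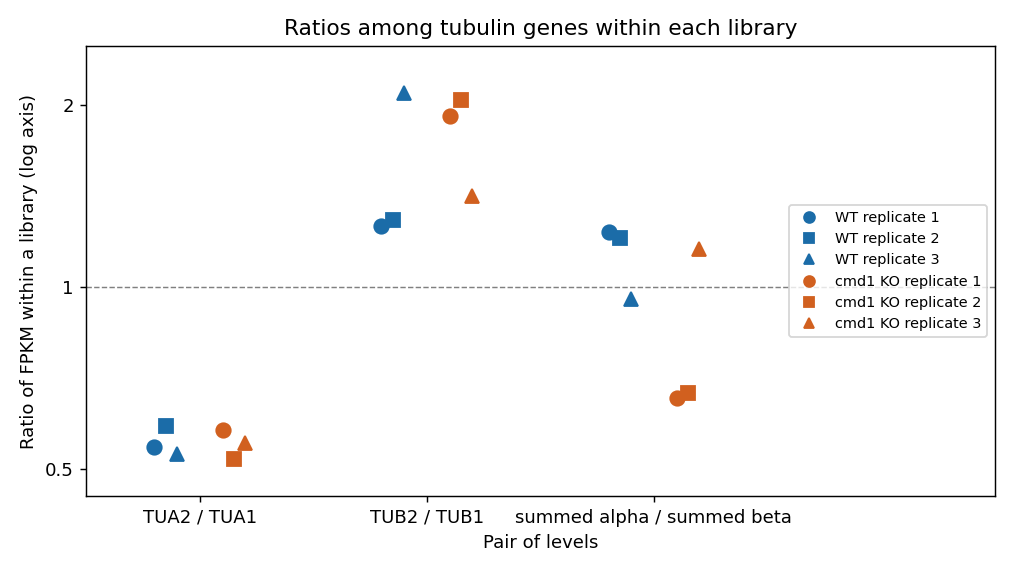
Ratio of FPKM within each library (log axis) for TUA2 over TUA1, TUB2 over TUB1 and summed alpha over summed beta, with 1 point per library. The alpha pair stays between 0.519 and 0.588 in all 6 libraries, while the beta pair ranges from 1.26 to 2.09 and alpha over beta from 0.655 to 1.23.

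As shares of the pool, TUB2 varied most. It made up 25.0%, 25.6% and 34.6% of summed tubulin FPKM in WT replicates 1, 2 and 3, and 39.7%, 40.2% and 27.1% in cmd1 KO. Both alpha genes moved the other way between genotypes in replicates 1 and 2. TUA1 was at 35.7% and 34.4% in WT and 25.0% and 26.3% in cmd1 KO. TUA2 was at 19.4% and 20.2% in WT and 14.5% and 13.7% in cmd1 KO. Since shares are parts of a whole, the summed share of the other genes must fall where that of TUB2 rises. TUB1 kept a share of 16.6% to 20.7% in all 6 libraries.

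**Figure D4:**
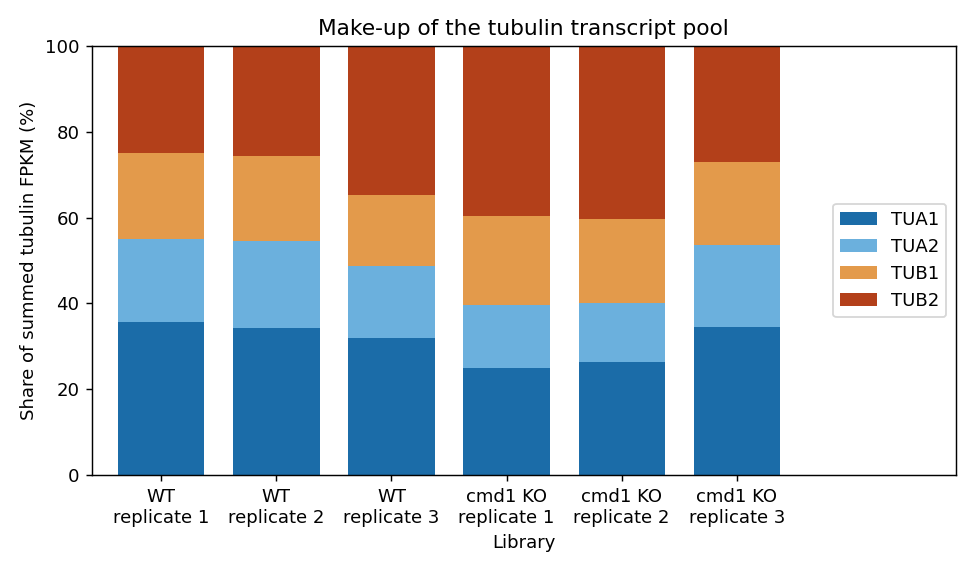
Share of the summed tubulin FPKM (percent) held by each gene in the 6 libraries, stacked to 100%. The TUB2 segment is 25.0% and 25.6% in WT replicates 1 and 2 and 39.7% and 40.2% in cmd1 KO replicates 1 and 2, while TUB1 keeps 16.6% to 20.7% throughout.

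The genes whose profile over the 6 libraries was nearest to the tubulin mean were weakly expressed and carry no name in the tables used. Nearness was the root mean square distance between centred log2 CPM profiles with TMM, over 6 libraries. The nearest 3 were Cre02.g094700 at 0.10, Cre01.g029800 at 0.12 and Cre02.g076150 at 0.13, against a median of 1.03 over tested genes. Cre02.g094700, for example, stood at 0.565, 0.802 and 3.87 FPKM in WT and at 0.246, 0.254 and 2.20 FPKM in cmd1 KO replicates 1, 2 and 3. The members themselves lay at 0.10 (TUB1), 0.18 (TUA1), 0.19 (TUA2) and 0.32 (TUB2), and 188 other genes were no farther than TUB2. Each member is part of the mean, which shortens its distance, so member distances cannot be set directly against those of other genes. The counting error of such low values was not weighed in the order of the nearest genes.

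Genes beside the tubulin genes on the chromosome had lower median folds in replicate 3 in WT. The 10 nearest tested neighbours of each gene, 5 on each side, had a median fold of replicate 3 over replicates 1 and 2 in WT of 1.25 for TUA1, 1.49 for TUA2, 1.10 for TUB1 and 1.68 for TUB2 on library sizes alone. Around TUA2, TUB1 and TUB2 no neighbour had as large a fold as the tubulin gene in WT, the highest being 4.54, 2.97 and 3.59. Around TUA1 the highest was 8.10, above that of TUA1. In cmd1 KO the highest neighbour was 41.3 around TUA1, 8.48 around TUA2, 4.41 around TUB1 and 7.78 around TUB2, the last above TUB2 itself.

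In the authors' deposited table all 4 genes were lower in cmd1 KO. The log2 fold changes in the authors' deposited table were -1.41 for TUA1, -1.42 for TUA2, -1.06 for TUB1 and -0.83 for TUB2, beside a median of -1.22 over all genes. The unadjusted p-values in the authors' deposited table were 0.000936, 0.0017, 0.00219 and 0.00724 in that order, and after Benjamini-Hochberg adjustment over all genes of the authors' deposited table each came to 0.0541. That was the smallest adjusted value of any gene there, so it does not single out the tubulin genes. At an unadjusted p under 0.05, 9112 genes of the authors' deposited table were lower in cmd1 KO and 273 were higher. An edgeR fit of the tested genes with genotype and a term for replicate 3, scaled by library size only, gave the same fold changes at the precision printed and an adjusted p of 0.0544 for each. This too was the smallest of any tested gene, and the fit called 0 genes. The same fit with TMM gave -0.39, -0.40, -0.04 and 0.20 in that order, with edgeR adjusted p of 0.180, 0.179, 0.895 and 0.710, and also called 0 genes.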

How the data were processed

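Stranded libraries were made from Trizol-extracted total RNA, per the labels' protocols. Cufflinks 2.0.0, TopHat2 and FastQC 0.11.5 are named, with no role, per the submitters' processing notes. The read counter, strand setting and genome build were not stated in the sources used here. Reads shared by near-identical tubulin genes may have been split or dropped. The deposited counts are raw reads per gene, and the deposited FPKM are those counts scaled by gene length and library total. The deposited log2 values, F score and p-value are the authors' own comparison, whose model is not stated. Of 17736 identifiers 17733 matched RefSeq locus tags of assembly v5.5, with 0 other symbols.

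The 10878 genes whose mean FPKM reached 1 were fitted with edgeR 4.0.16 (quasi-likelihood, TMM, two-sided, Benjamini-Hochberg), in R 4.3.3. SE is the log2 difference over the square root of F. Fits took genotype over 6 libraries, genotype in replicates 1 and 2, and the interaction with replicate 3. Per-library measures used exact permutation tests (scipy 1.17.1). Alternatives were library sizes alone, DESeq2 1.42.0, limma 3.58.1 on log2(FPKM + 1) and log2(FPKM + 0.1), no filter, the replicate block and leaving out each library. The edgeR fits alone were checked, on counts simulated without a shift of replicate 3 over all genes. Their simulated spread between libraries was below the common biological coefficient of variation of 0.558 over all 6 libraries.

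Same-numbered libraries deviated together from their group means (correlations 0.530, 0.427 and 0.547), and the labels list WT and mutant together by number, so numbers were taken as pairs. Replicates 1 and 2 were not told apart by this. The correlation of WT replicate 1 with cmd1 KO replicate 2 was 0.491, and that of WT replicate 2 with cmd1 KO replicate 1 was 0.479. For these replicates the pairing rests on the numbers in the labels alone. The labels do not say that replicates were separate cultures beyond calling them biological, so p-values measure the spread between these libraries. The members, comparisons and lists were chosen with earlier results of these data known, and the ratios of TUB1 to TUA2 and of TUB2 to TUA1, the term for replicate 3, the folds of replicate 3, the neighbours and the length classes were chosen after the values were seen. The rule for named genes took the 4 members, genes with related proteins and the 3 genes of nearest profile. Genes with tubulin-related proteins, a promoter motif and sequences were not analysed here.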

Additional observations from a re-analysis of the deposited data

Results flagged for a closer look

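The edgeR interaction term of TUB2, which compares the genotype effect in replicate 3 with that in replicates 1 and 2, was -1.72 on the log2 scale with TMM (SE 0.25, adjusted p = 3.81e-06), and 23.4% of tested genes were called in that direction. Replicate 3 has 1 library per genotype, so the p rests on the spread within replicates 1 and 2 and does not cover differences between cultures like replicate 3. With TMM, TUB2 was higher in cmd1 KO in 2 of 2 pairs of replicates 1 and 2 and lower in the pair of replicate 3. On library sizes alone TUB2 was lower in cmd1 KO in all 3 pairs and the term was -0.65. The ratio of TUB2 to TUB1 holds the same TUB2 values, with log2 differences of 0.60 and 0.66 in pairs 1 and 2 and -0.57 in pair 3. Summed alpha over beta holds them as well, at -0.91 and -0.85 in pairs 1 and 2 and 0.28 in pair 3. Neither ratio is therefore separate evidence beside the term of TUB2. For both ratios the difference between the pairs was not tested.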

How the results depend on the processing

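Of 181 recomputed values, most kept their direction and their side of the threshold. For the within-library ratios and the summed level only the direction could change. Their exact permutation p cannot go below 0.1, so their side of the threshold was fixed in advance. Over 6 libraries edgeR called 0 genes, DESeq2 called 688, and leaving out 1 library gave 0 to 4227 calls, the highest without cmd1 KO replicate 3. In replicates 1 and 2 leaving out 1 library gave 6708 to 7565 calls beside 7853. Without WT replicate 3 the log2 differences over 6 libraries reversed, to 0.55 for TUA1, 0.51 for TUA2, 0.73 for TUB1 and 1.11 for TUB2, and leaving out 1 library gave as the other extremes -1.34, -1.32, -0.78 and -0.72. TUB1 also reversed without cmd1 KO replicate 1 (0.04) and replicate 2 (0.07). TUB2 reversed with the replicate block (0.21) and with the term for replicate 3 (0.20). In replicates 1 and 2 library sizes alone reversed TUB1 (-1.24) and TUB2 (-0.61), and leaving out 1 library moved TUB1 between -0.017 and 0.29. Library sizes alone reversed the interaction terms of TUA1 (0.92), TUA2 (1.02) and TUB1 (0.54). Leaving out 1 library moved the log2 difference between -0.046 and 0.038 for TUA2 over TUA1, between 0.10 and 0.47 for TUB2 over TUB1, between -0.76 and -0.35 for alpha over beta, and between -2.10 and -0.31 for the summed level. In replicate 3 only, the ratios stood at 0.061, -0.57 and 0.28. The replicate block ended the call of TUA1 in replicates 1 and 2 (edgeR adjusted p = 0.0502) and changed no other call of the 4 genes. The cause was not tested where a scaling or a left-out library turned a direction. Depth did not limit these genes, whose lowest count was 2516. Alternatives on tubulin-related proteins were not run, for want of a protein table.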
